A study of Mus musculus with 16 samples.

Results

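Malat1 and Neat1 are 2 long noncoding RNAs transcribed from neighbouring genes on the minus strand of mouse chromosome 19. They are 2 of 42918 transcribed regions, each region being 1 or more overlapping same-strand entries of the nuclear RNA-seq lists. They were taken from fixed mm9 intervals and were chosen by their CLIP peak density, since earlier work on the same data had placed them among the RNAs with the densest CTCF CLIP peaks. Their peak density, peak counts, shared peak positions, nuclear RNA levels and nearby ChIP peaks all entered that choice, so these values are given as a description. CLIP-seq (UV crosslinking, immunoprecipitation and sequencing of the bound RNA) was done on nuclear lysates with anti-FLAG beads, and the series' design text assigns the precipitated protein to CTCF, a zinc-finger protein that binds DNA and RNA.

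The CLIP and RNA libraries came from female embryonic stem (ES) cells labelled CAST/Ei x 129/Sv/Jae, and the ChIP libraries from female ES cells labelled 129S1/CastEiJ x 129S1. Day 3 cells were differentiating and had been kept for 3 days without the self-renewal factor LIF in non-adherent culture. Day 0 cells were undifferentiated, adherent and grown with LIF. Each day had 2 CLIP libraries with UV and 1 library of ribosome-depleted nuclear RNA, and CTCF ChIP-seq had 1 library at day 3 and 2 at day 0. The labels do not say that replicates came from separate cultures, so p-values speak to the spread among these libraries alone, and that spread may be technical. In such bulk samples, fewer cells that hold an RNA and less of that RNA per cell cannot be told apart. The CLIP libraries without UV and the ChIP inputs were not analysed here.

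Malat1 is an abundant nuclear RNA that collects at nuclear speckles, bodies rich in splicing factors, and its 3′ end is cut off to release a small tRNA-like RNA, mascRNA. Neat1 is the scaffold of paraspeckles, nuclear bodies that assemble around it. Neat1 is made from one promoter as a short polyadenylated form and as a long form that begins with the same sequence, and the long form is needed to build the paraspeckle.

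In mm9, the Malat1 interval was chr19:5794634-5802671 (8038 bases) and Neat1 was chr19:5824708-5845478 (20771 bases), with 22036 bases between them. The Malat1 interval was wider than the gene. It held a day 0 entry at 5795690-5802671 of 6982 bases, against a RefSeq length of 6983, and a stretch of 1056 bases beyond the 3′ end of that entry. Neat1 matched 1 entry at each day, against a RefSeq length of 20773 bases. Its first 3179 bases, at 5842300-5845478, are the part held by the short form.

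The Malat1 promoter is shown because no CTCF ChIP peak of any library lay over it. It runs from 250 bases before to 50 bases after the start (RefSeq, GRCm38.p6, chr19:5802623-5802922, minus strand), and capitals mark its 1 match to CCCTC, read on the opposite strand.
Malat1 promoter: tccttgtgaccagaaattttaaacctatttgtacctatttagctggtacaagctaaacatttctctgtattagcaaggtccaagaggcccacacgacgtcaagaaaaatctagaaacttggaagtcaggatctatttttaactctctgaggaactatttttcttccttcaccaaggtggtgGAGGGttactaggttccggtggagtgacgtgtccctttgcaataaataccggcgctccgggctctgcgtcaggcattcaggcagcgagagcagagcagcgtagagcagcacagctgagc
CCCTC on either strand was held by 66.0% of 32851 RefSeq promoters of the same length. A simplified core of the CTCF DNA motif was held by 2.43% of them on either strand and was not in this window. The 2 words were searched separately, and a match of one may overlap a match of the other. The Neat1 promoter is not shown.

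For replicates 1 and 2, the deposited CLIP lists named 106382 and 165695 peaks over 4.71 and 6.80 Mb in day 3 cells, against 114016 and 213181 peaks over 4.92 and 8.30 Mb in day 0 cells. The lowest score listed was 406 and 212 at day 3 and 409 and 221 at day 0, so the lists of replicate 2 reached lower scores at both days. The lists give no read counts, so the depth behind a peak is unknown. The ChIP list of day 3 named 41264 peaks, against 45377 and 76745 in those of day 0, and the RNA-seq lists named 28677 entries at day 3 and 40668 at day 0.

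Malat1 was covered by CLIP peaks over most of its length at both days. For replicates 1 and 2, the interval held 38 and 33 peaks at day 3, against 46 and 39 at day 0. Peaks covered 708 and 736 bases per kb at day 3, against 699 and 738 at day 0. The days overlapped, with means of 721.6 ± 19.8 at day 3 and 718.5 ± 27.0 at day 0 (SD, n = 2 each). Within the 6982-base transcript alone, peaks covered 81.0% and 84.7% of the bases at day 3 and 79.1% and 84.9% at day 0. The 1056 bases beyond its 3′ end held 32 and 0 peak bases at day 3 and 100 and 0 at day 0, so nearly all of the coverage lay within the transcript.

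Neat1 was covered less densely, and less at day 3 than at day 0. It held 73 and 122 peaks at day 3, against 151 and 146 at day 0. Peaks covered 174.5 and 300.6 bases per kb at day 3, against 464.6 and 480.9 at day 0. Both day 3 libraries lay below both day 0 libraries, with means of 237.6 ± 89.2 at day 3 and 472.8 ± 11.5 at day 0 (SD, n = 2 each). The same order of libraries was found by this measure in 18.5% of the 12325 regions compared between days. Mean density in Malat1 was 3.04 times that in Neat1 at day 3 and 1.52 times at day 0.

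**Figure D1:**
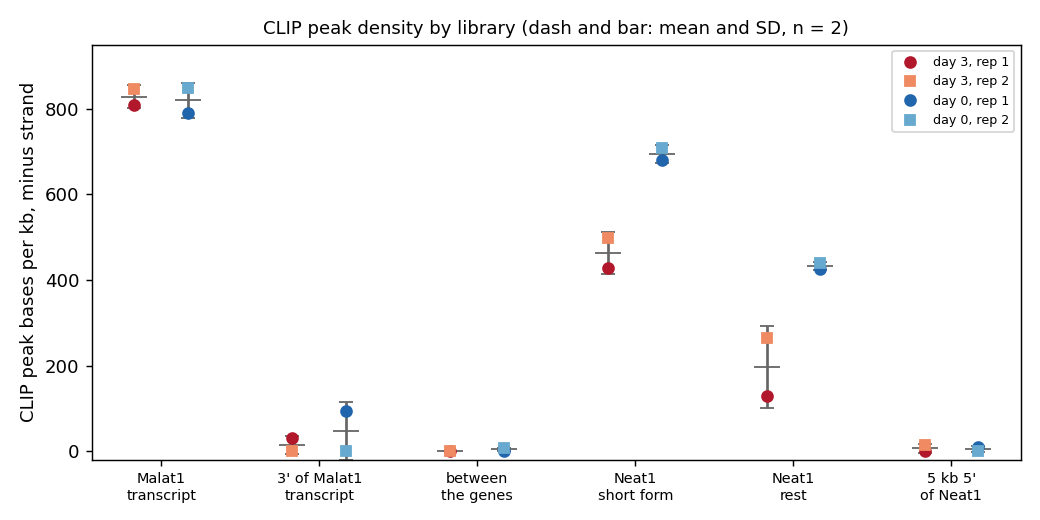
CLIP peak bases per kb on the minus strand (vertical axis) in 6 segments of the locus, with 1 point per library, day 3 left of day 0, and the mean and SD (n = 2) as a dash and bar. The Malat1 transcript averages 828.5 at day 3 and 820.0 at day 0, both parts of Neat1 are lower at day 3, and the segments outside the transcripts lie below 100.

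Few same-strand peaks lay outside the 2 RNAs. Between the genes there were 0 and 0 same-strand peak bases at day 3 and 34 and 146 at day 0, over 22036 bases. The 5 kb beyond the Malat1 interval held none in any of the 4 libraries. The 5 kb before the 5′ end of Neat1 held 0 and 74 peak bases at day 3 and 48 and 0 at day 0. Over the 4 libraries, 0 peaks lay on the opposite strand within either gene. Within 100 kb on each side of the midpoint of the locus, 5 of 11 other regions of at least 1 kb had peaks in at least 2 libraries. None of these 5 exceeded 16.3 peak bases per kb in any library.

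Among regions of at least 1 kb with CLIP peaks in both libraries of that day, Malat1 ranked 1 of 8685 by mean peak density at day 3 and 1 of 8891 at day 0. Neat1 ranked 18 at day 3 and 3 at day 0. The median region had a density of 9.69 at day 3 and 10.6 at day 0, in the same unit, and the 99th percentile was 121 at day 3 and 156 at day 0. Ranking by number of peaks per kb instead put Malat1 at 26 at day 3 and 36 at day 0. These ranks describe what the members were chosen for.

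In the score that the authors gave each peak, Malat1 also held some of the highest peaks of each list. Its highest peak scored 26218 and 18430 at day 3 and 19651 and 24636 at day 0, ranking 3 and 17 at day 3 and 13 and 5 at day 0 within its list. These peaks lay 2895 to 3080 and 2587 to 3102 bases from the 5′ end at day 3, and 1738 to 1852 and 2787 to 3112 bases from it at day 0. The highest peaks of 3 libraries thus overlapped, and that of day 0 replicate 1 lay nearer the 5′ end. In each list, 22 and 18 Malat1 peaks at day 3 and 29 and 20 at day 0 were in the top 1% of scores.

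Neat1 peaks were lower in score. The highest scored 2265 and 2414 at day 3 and 3590 and 2387 at day 0. They lay 115 to 252 and 761 to 902 bases from the 5′ end at day 3, and 727 to 946 and 14399 to 14602 bases from it at day 0. The position was therefore in the short-form part in 3 libraries and far into the long form in day 0 replicate 2. In the top 1% of scores there were 1 and 10 Neat1 peaks at day 3 and 27 and 26 at day 0. The lists differ in length and in lowest score, so scores were compared only within a list.

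**Figure D2:**
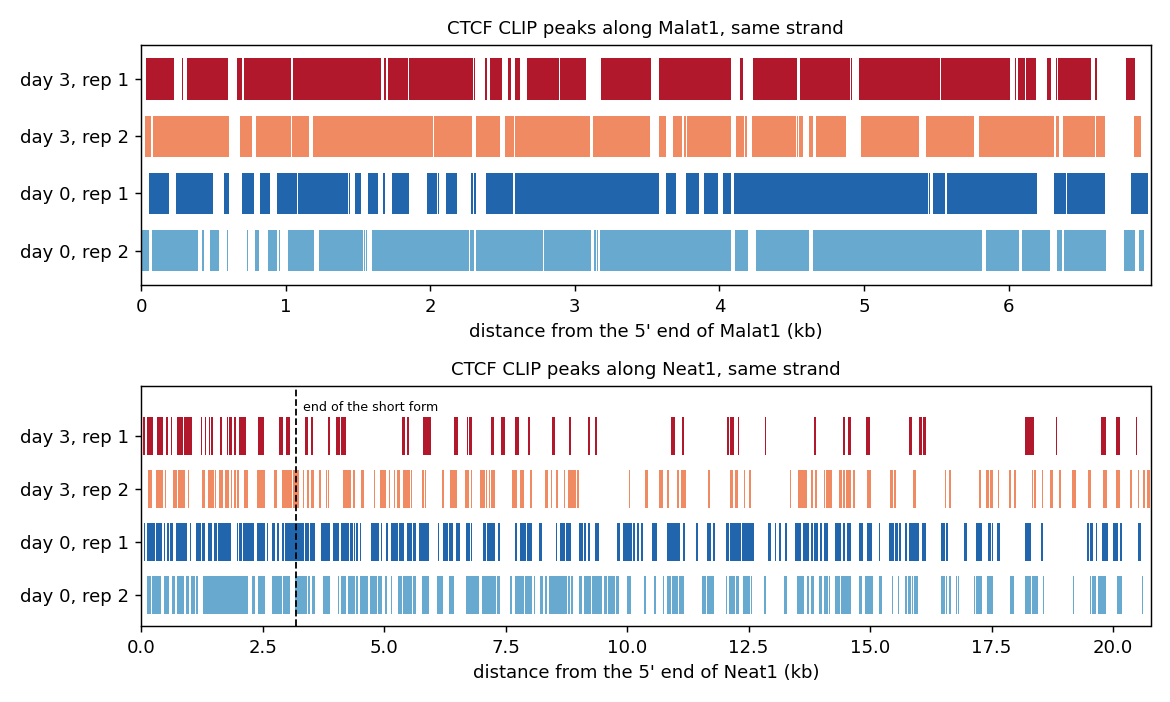
CLIP peaks (coloured bars) along the Malat1 transcript (above) and Neat1 (below), with distance from the 5′ end in kb on the horizontal axis and 1 row per library, day 3 above day 0. Malat1 is nearly filled in all 4 libraries, with a gap near its 3′ end, while Neat1 has separate peaks that are denser before the dashed line, the end of the short form, and sparser at day 3.

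More than 50% of the Malat1 transcript was in peaks of all 4 libraries. Of the 6982 bases of the transcript, 3813 (54.6%) were in peaks of all 4 libraries, 2072 (29.7%) in 3 and 229 (3.28%) in none. The longest run shared by all 4 libraries was 402 bases, at chr19:5797290-5797691, which is 4981 to 5382 bases from the 5′ end. The longest run with no peak in any library was 127 bases, at chr19:5795873-5795999, which is 6673 to 6799 bases from the 5′ end. Of 153 peaks counted over the 4 libraries, 127 (83.01%) overlapped a peak in each of the other 3 libraries by at least 1 base. Because most of the transcript lies in peaks, much overlap follows from the coverage itself.

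In Neat1, 1289 of 20771 bases (6.21%) were in peaks of all 4 libraries and 6158 (29.6%) in none. The longest run in all 4 libraries was 105 bases, at chr19:5844614-5844718, which is 761 to 865 bases from the 5′ end and within the short-form part. In that part 619 of 3179 bases (19.5%) were in peaks of all 4 libraries, against 670 (3.81%) of the 17592 bases of the rest. Each library also covered more of the short-form part than of the rest, and overlap rises with coverage. The longest run in no library was 296 bases, at chr19:5829026-5829321, in the long form only. Of 492 Neat1 peaks, 178 (36.2%) overlapped a peak in each of the other 3 libraries.

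Libraries of the same day shared more of Malat1 than of Neat1, though such shares rise with coverage, which was higher in Malat1. For Malat1, the bases in peaks of both libraries were 80.5% of those in either at day 3 and 73.1% at day 0, and pairs from different days gave 72.1% to 79.6%. For Neat1 the day 3 pair shared 21.5% and the day 0 pair 49.9%, and pairs from different days gave 25.1% to 35.9%. The day 3 pair of Neat1 thus had the lowest share of all pairs. Of the Neat1 bases in peaks of day 3 replicate 1, 48.1% were in peaks of day 3 replicate 2, and 73.7% and 75.4% were in peaks of day 0 replicates 1 and 2, whose peaks cover more of Neat1.

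Along Malat1, coverage was high from end to end. In 14 windows of 500 bases (the last of 482), the lowest value was 320 and 456 peak bases per kb at day 3 and 466 and 306 at day 0. The last window, at the 3′ end, had 320 and 456 at day 3 and 587 and 568 at day 0, and both day 3 libraries were below both day 0 libraries there. That was so in 3 of the 14 windows, and the reverse held in 2. The first peak began 36 and 27 bases after the 5′ end at day 3, and 52 and 7 bases after it at day 0.

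Along Neat1, coverage was densest near the 5′ end. In the first of 4 equal parts of its length, peaks covered 327 and 453 bases per kb at day 3 and 660 and 673 at day 0. In the last of these parts they covered 115 and 202 at day 3 and 282 and 268 at day 0. All 4 libraries were higher in the first part than in the last. Of 21 windows of 1 kb (the last shorter), both day 3 libraries were below both day 0 libraries in 17 and above them in 0. The windows share their libraries, so they are not separate observations of the difference between days.

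**Figure D3:**
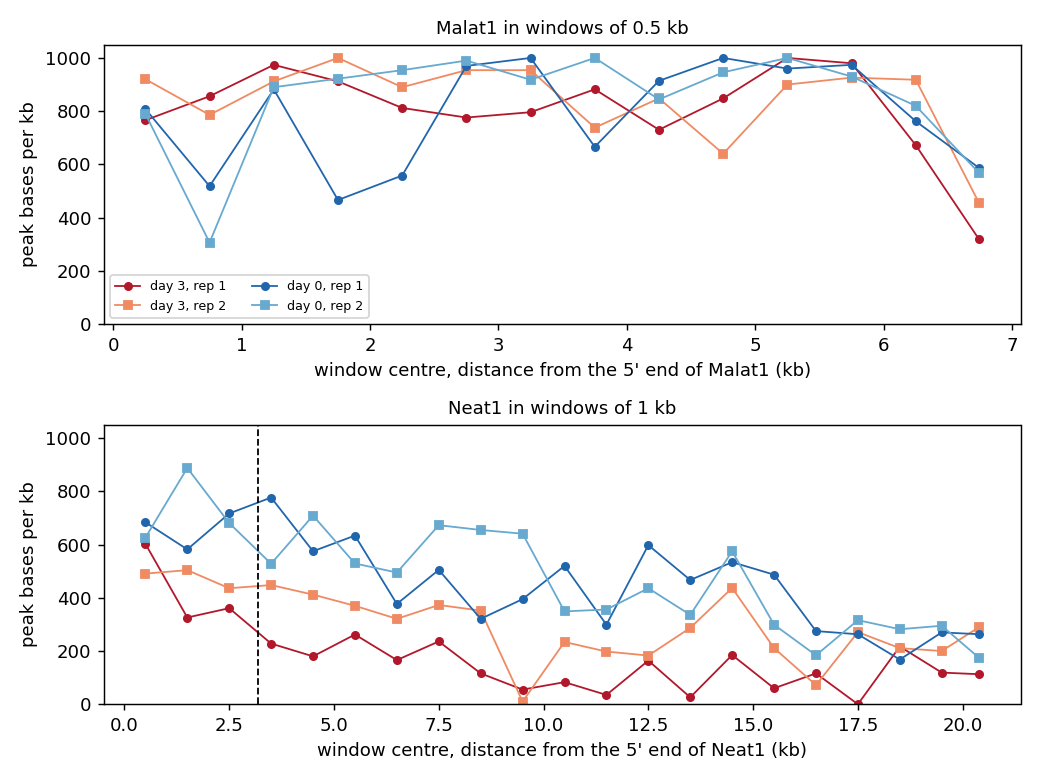
Peak bases per kb (vertical axis) in windows along Malat1 (500 bases) and Neat1 (1 kb), plotted at the window's distance from the 5′ end in kb, with 1 line per library. The lines of both days cross along Malat1, and along Neat1 both day 3 lines lie below both day 0 lines in 17 of 21 windows.

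The part of Neat1 that the short form shares was covered by more peak bases per kb than the rest in all 4 libraries, though by number of peaks per kb it was 0.92 times the rest in day 0 replicate 2. Peaks covered 428 and 499 bases per kb of the short-form part at day 3, against 680 and 709 at day 0. Over the rest of Neat1 they covered 129 and 265 at day 3, against 426 and 440 at day 0. Both parts were thus lower in both day 3 libraries than in both day 0 libraries. Mean density at day 3 was 0.667 times that at day 0 in the short-form part and 0.455 times in the rest. Any RNA from the short-form part may come from either form, so these values do not separate the 2 forms.

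The ratio of density in the short-form part to that in the rest was 3.33 and 1.88 at day 3, against 1.60 and 1.61 at day 0. Both day 3 ratios were above both day 0 ratios, and that of day 3 replicate 1 stood apart. On the log2 scale the mean ratio was 1.32 ± 0.58 at day 3 and 0.68 ± 0.01 at day 0 (SD, n = 2 each), a difference of 0.64. This is a description with no test, since peak positions along Neat1 entered the choice of the members, and an exact permutation of 2 libraries against 2 cannot give a two-sided p under 0.333. Without day 3 replicate 1 the difference was 0.23, and without day 3 replicate 2 it was 1.05.

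To compare the days across all regions, peak bases in each region were divided by all peak bases of the library. Values are log2(peak bases per Mb of peak bases + 1), tested with limma (Benjamini-Hochberg adjustment) over the 12325 regions with peaks in at least 2 libraries. At an adjusted p under 0.05 it called 0 regions (0% of those tested), and 899 (7.29%) had an unadjusted p under 0.05. Leaving out 1 library gave 377 calls without day 3 replicate 2, 56 without day 3 replicate 1, 9 without day 0 replicate 1 and 0 without day 0 replicate 2. Those fits have 1 library in 1 of the days, which is assumed to vary like the others. Malat1 and Neat1 were chosen by CLIP peak density in these same libraries, so limma's p-values for both are given as a description.

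Malat1 had 10.24 and 9.76 on this log2 scale at day 3, against 10.16 and 9.48 at day 0. The days overlapped, and replicate 1 was higher than replicate 2 at each day. The difference was 0.18 ± 0.33 (SE), with limma's adjusted p = 0.957. Without day 3 replicate 1 it was -0.06, and without day 0 replicate 2 it was -0.16. When peak bases were not scaled to the library, the difference was 0.0065. Before scaling, replicate 2 had more peak bases per kb than replicate 1 at each day. Peaks covered 79.1% to 84.9% of the transcript in each library, so peak bases had little room to rise.

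Neat1 had 9.59 and 9.84 on the same log2 scale at day 3, against 10.94 and 10.23 at day 0. Both day 3 libraries were below both day 0 libraries, as in 18.1% of the regions tested. The difference was -0.87 ± 0.31 (SE), with limma's unadjusted p = 0.0280 and adjusted p = 0.662. Neat1 was thus not called in the fit of all libraries. Without day 3 replicate 2 the difference was -0.998, and leaving out 1 library at a time gave -1.22 to -0.52. The difference between days was not tested for being unequal in the 2 RNAs.

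**Figure D4:**
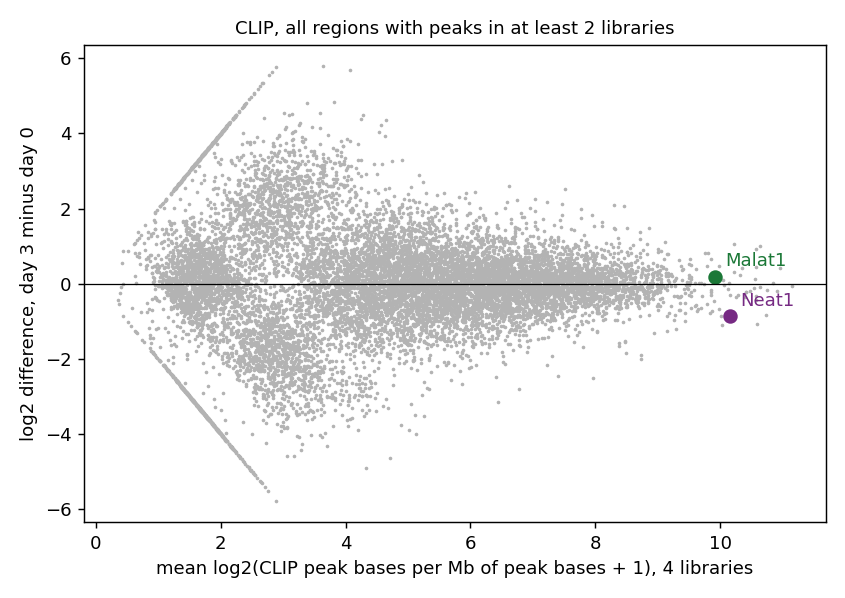
Difference between days (day 3 minus day 0, log2) against mean log2(CLIP peak bases per Mb of peak bases + 1) over 4 libraries for the 12325 regions tested (grey points). Malat1 (0.18) and Neat1 (-0.87) are marked, and both lie at the right, among the regions with the most peak bases.

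The regions with a CLIP pattern nearest to each RNA were found by Euclidean distance over log2(peak bases per kb + 1) in the 4 libraries. They had to be at least 1 kb long with an FPKM of at least 1 at either day and peaks in all 4 libraries. Nearest to Malat1 was chr7:3217847-3219910 on the plus strand (distance 1.35), with 358 and 464 peak bases per kb at day 3 and 470 and 602 at day 0. Neat1 was the fifth nearest to Malat1 (distance 2.54). Nearest to Neat1 were chr19:8797986-8800932 (0.79), chr16:23107358-23114522 (0.82) and chr9:64021194-64026369 (1.01), all on the plus strand. The first of these had 221 and 221 peak bases per kb at day 3, against 383 and 343 at day 0. The distance from Malat1 to its nearest region was larger than from Neat1 to any of its 5 nearest, the last of which was at 1.15. Genes are not named for these regions because the files pair no names with them.

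In nuclear RNA, Malat1 was far more abundant than Neat1 at both days. The unit is FPKM (fragments scaled to transcript length and to library depth), with 1 library per day and therefore no replicate check and no test. The Malat1 entry was listed at 366 FPKM at day 3, against 785 FPKM at day 0. On log2(FPKM + 1) this is a difference of -1.10, and of the regions listed at both days 12.2% were lower by at least 1 (39.3% of all regions, most of those listed at day 0 only). The entries are not alike, however. The day 3 entry pools 2 transcripts and the day 0 entry holds 1, and the deposited value of a pooled entry is the mean of its transcripts. Summed over transcripts, Malat1 had 732 FPKM at day 3 and 785 FPKM at day 0, a log2 difference of -0.10, and by such sums 16.1% of regions were lower by at least 1. The difference past 1 was thus found with the deposited means and not with the sums.

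Neat1 was listed at 22.5 FPKM at day 3, against 29.2 FPKM at day 0, and each entry pools 2 transcripts. The log2 difference was -0.36, or -0.37 for the sums of 45.0 FPKM at day 3 and 58.4 FPKM at day 0. Over the 23063 regions listed at both days, the median log2 difference was 0.23 by entry and 0.19 by sum. By sum over transcripts, Malat1 exceeded Neat1 16.3 times at day 3 and 13.4 times at day 0. A day 0 entry of 11.3 FPKM lay just beyond the 3′ end of Malat1, at chr19:5794634-5795630, and it was part of a joined region only because the day 3 Malat1 entry overlapped it.

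CTCF on DNA was mapped near both genes, and the sites found in every library lay outside the transcripts. Within 10 kb of either gene or between them, peaks of the 3 ChIP libraries formed 10 sites, of which 5 were in all 3 libraries and 5 in 1 library. None of the 5 shared sites overlapped the Malat1 transcript or Neat1. They were at chr19:5784643-5788283 and chr19:5790406-5794666 beyond the 3′ end of Malat1, at chr19:5812840-5815466 and chr19:5816780-5820812 between the genes, and at chr19:5849168-5851813 before the 5′ end of Neat1.

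The shared site before Neat1, centred 5012 bases from its 5′ end, had an authors' score of 59.2 at day 3, against 84.2 and 42.3 at day 0. The site centred 11481 bases before the 5′ end of Malat1 scored 23.8 at day 3, against 48.5 and 105 at day 0. Within their own lists, 90.6% of peaks scored lower than the first site at day 3, against 98.6% and 87.4% at day 0. For the second site this was 35.6% at day 3, against 84.4% and 99.8% at day 0. Scores and percentages come from lists of unequal length, so whether either site changed between days cannot be judged from them.

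All 5 sites found in 1 library overlapped a gene body, and all were from day 0. The share of sites found in 1 library over the genome was not counted, so these 5 cannot be set against it. The list of day 0 replicate 2 was the longest, with 76745 peaks against 45377 in replicate 1 and 41264 at day 3. Of the 5 sites, 4 were in day 0 replicate 2. They were at 5795766-5797760 in Malat1, at 5834369-5835198 and 5841505-5844160 in Neat1, and at 5844647-5847103 over the 5′ end of Neat1. The last of these was centred 396 bases before that end. These 4 sites had low scores. Their scores of 9.91, 8.19, 9.97 and 10.4 were close to the lowest score of that list, 8.13, and at most 27.5% of its peaks scored lower. The lowest scores in the lists of day 3 and of day 0 replicate 1 were 15.5 and 17.4, and the part of these list ends in the sites found in 1 library was not tested. The fifth, at 5824086-5825245 over the 3′ end of Neat1, scored 19.98 in day 0 replicate 1. Its stretch held 1 and 5 CLIP peaks at day 3 and 1 and 4 at day 0. The 4 sites of replicate 2, in the order given, held 12 and 8, 2 and 5, 22 and 29, and 6 and 7 CLIP peaks at day 3. At day 0 they held 7 and 9, 6 and 11, 22 and 15, and 13 and 6.

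**Figure D5:**
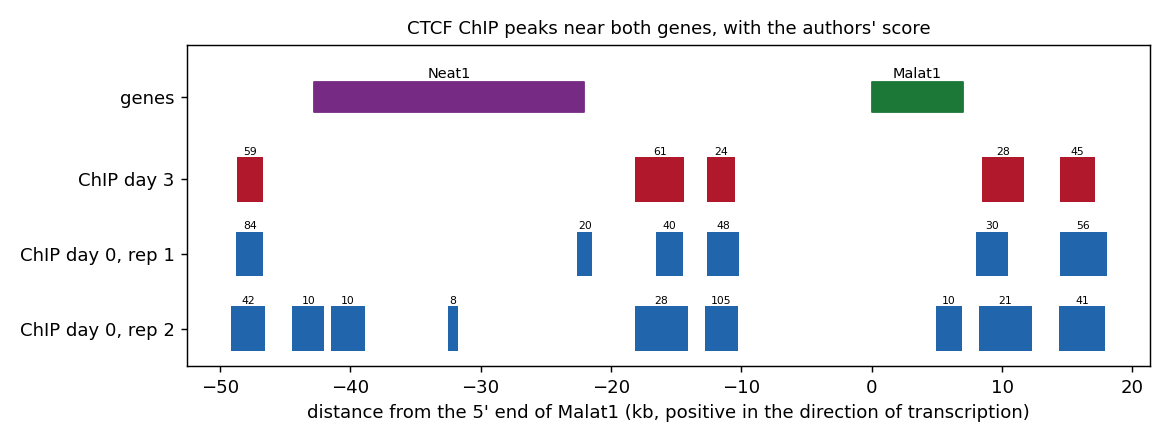
CTCF ChIP peaks (bars, with the authors' score above each) by library, day 3 above day 0, against distance from the 5′ end of Malat1 in kb, with the genes on top. The 5 sites in all 3 libraries lie outside the gene bodies, and the peaks over Neat1 and Malat1 appear in 1 day 0 library each.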

How the data were processed

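Of 16 samples, 9 had peak or transcript lists used here; 7 controls (CLIP without UV, ChIP inputs) were not analysed here. The submitters' processing notes name mm9, Cufflinks 2.1.1, bedtools 2.17.0, Novoalign 3.00.03, TopHat2 2.0.8, SAMtools 0.1.18, Trim Galore 0.3.3 and cutadapt 1.0, with no role or order. The deposited peak lists give a score per peak in each library; the peak caller and how the authors computed the score are not given in the sources used here. RNA-seq lists as deposited hold FPKM per entry, and pooled entries hold the mean over their transcripts: all pooled values times their transcript number came out at 2 decimals (tolerance 0.01). Strand in the CLIP lists was taken from the deposited strand-separated files, and libraries keep strand per the labels' protocols.

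Same-strand RNA-seq entries of both days that overlap by at least 1 base were merged into regions. Peak bases per region were compared in limma 3.58.1 (R 4.3.3, trend on), with a pseudocount of 1 and an adjusted p threshold of 0.05; the script that runs this fit was tested on simulated data. Other values used Python 3.11.15, pandas 2.3.3 and SciPy 1.17.1, and figures matplotlib 3.10.9. FPKM were compared as log2(FPKM + 1). Peaks split by short gaps, so peak counts are not counts of sites.

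The members, lists and tests were chosen with earlier results of these data known. Genes and regions named are Malat1 and Neat1, the 5 regions nearest to each in CLIP density, and neighbours of at least 1 kb. A list of speckle and paraspeckle genes and the cell type markers were not used here, since no annotation of mm9 was at hand; the labelled cell type was therefore not checked. RefSeq tables (GRCm38.p6) served for names, lengths and the promoter only. Alternatives were other pseudocounts, filters, scalings, score thresholds and overlaps, the replicate block, and leaving out each library.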

Additional observations from a re-analysis of the deposited data

How the results depend on the processing

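For 19 results, 111 alternatives were computed, of which 89 left the result the same by the rule set for it. For the CLIP differences of Malat1 and Neat1 this rule was direction and side of the threshold. For the short-form ratio of Neat1 it was direction alone, so these sizes could differ. Counts, ranks, densities, shares and nuclear RNA had to stay within a set margin. For densities the margin was 1 SD of 2 libraries, which leaving out either library cannot exceed. Neat1 at day 3 thus counted as the same at 174.5 and 300.6 peak bases per kb, against 237.6. Filters on the number of libraries with peaks could change only the adjusted p of a gene, and its difference stayed equal. The number left the same is therefore no measure of stability. Regions called by limma numbered 45 with peaks per 10000 peaks in place of peak bases, and 0 to 377 when 1 library was left out. The Malat1 difference was -0.029 with peaks per 10000 peaks and -0.16 to 0.52 with 1 library left out. That of Neat1 was -1.22 to -0.52 with 1 library left out. By peaks per kb, Malat1 ranked 26 at day 3 and 36 at day 0, and Neat1 ranked 8 at day 0; with 1 library left out, Neat1 ranked 9 to 33 at day 3. Within the transcript alone, the Malat1 density was 828.5 at day 3 and 820.0 at day 0. With the upper 50% of scores, Neat1 had 439.2 peak bases per kb at day 0, 31.5% of its peaks were in all libraries, and 3 ChIP sites were in all libraries. When 50% of the shorter peak had to overlap, 71.9% of Malat1 and 27.0% of Neat1 peaks were in all libraries. Malat1 nuclear RNA differed by -0.10 when summed over transcripts, an alternative chosen after seeing the data, like the transcript alone. Regions lower by at least 1 in log2(FPKM + 1) numbered 16855, and 7950 with a mean FPKM of at least 5. By peaks per kb, the short-form part of Neat1 was 0.92 times as dense as the rest in day 0 replicate 2. The cause was not tested. Deviations of same-numbered libraries from their day means were not correlated between days (r = 0.02 across 12325 regions, which are not independent). At both days, however, the list of replicate 2 held more peaks and reached lower scores. Whether same-numbered libraries share a batch was not tested. With a replicate block limma called 0 regions, and 1252 had an unadjusted p under 0.05. In that fit Malat1 was at 0.18 (adjusted p = 0.949) and Neat1 at -0.87 (adjusted p = 0.469). CLIP had 2 libraries a day and nuclear RNA 1, and the peak lists give no read counts, so the depth behind each value is unknown. The smallest difference that could be detected in these libraries was not measured.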

Other observations

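The allele-specific lists hold little on these genes. The CLIP lists split by allele had 0 peaks on the minus strand of chromosome 19 in every library, so the alleles of both RNAs could not be compared. ChIP lists assigned to mus held 5 peaks around the genes at day 3 and 6 and 8 at day 0, while lists assigned to cas held 0 in all 3 libraries. On all of chromosome 19, the cas lists held 4 peaks at day 3 and 2 and 3 at day 0, against 976 mus peaks at day 3 and 1016 and 1741 at day 0, so the absence of cas peaks is shared by the chromosome.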
